A study of Mus musculus with 4 samples.

Results

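Macrophages of IL-12-treated mouse mammary tumours were divided by whether a transcript of Cxcl9 was caught in the cell, and the 2 sides were compared gene by gene. The cells were those of the IL-12 expression table that the authors class as macrophages, place in their graph-based cluster 6 and list without a T cell receptor clone. They were selected on Cxcl9 itself: a cell with at least 1 Cxcl9 unique molecular identifier (UMI, 1 captured transcript) is called Cxcl9-positive, and a cell with 0 is called Cxcl9-negative. The rule gave 1017 cells, 270 positive and 747 negative, out of 1171 macrophages of cluster 6, 1702 macrophages and 12979 cells in the IL-12 library and 17211 cells in both libraries. Because Cxcl9 chose the cells, its own level is a description, and every other gene of this contrast is likewise described without a test.

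The IL-12 cells came from tumours injected with a plasmid for interleukin 12 and then electroporated. The control cells came from tumours injected with a control plasmid and electroporated in the same way. Each treatment is a pool of 3 mice sorted for live CD45+ cells and read as 1 transcript 5′ library, so mice cannot be told apart and no comparison here has a replicate. The sources disagree on the model, which the title calls TNBC, the library names call 4T1 and the growth protocol describes as HER2 expression induced in mammary tissue of mice at 1 month of age. Strain and host genotype were left unstated in the descriptions used here.

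CXCL9 is a chemokine that draws cells bearing the receptor CXCR3, chiefly activated T cells and NK cells. CXCL10 and CXCL11 bind the same receptor. Macrophages make CXCL9 mainly in response to interferon-gamma from T and NK cells, which also induces genes for antigen presentation and for guanosine triphosphatases of host defence. IL-12 acts upstream of that, since T and NK cells exposed to it release interferon-gamma.

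The label was checked on the markers of macrophages. Among the 1017 cells, 98.8% had a UMI of Cd14, 95.5% of Lyz2, 90.8% of Apoe, 84.4% of Cd68, 73.3% of Csf1r and 73.1% of Fcgr1. These cells therefore carried the core of the myeloid and macrophage markers, but C1qa was seen in 46.4%, Adgre1, which encodes F4/80, in 25.7% and Mertk in 5.41%. In neutrophils of the same library, at a median of 2553 UMIs per cell against 8935 here, C1qa was seen in 18.6%, Csf1r in 7.33% and Adgre1 in 1.32%. Cd14 did not set the cells apart, since 95.7% of those neutrophils had it. Transcripts of other cells were also present, with S100a8 of neutrophils in 74.3% and Cd3e of T cells in 14.4% of the cells, and Flt3 of dendritic cells in 0.688%. The libraries shared 87 cell barcodes, 6 of them among the 1017 cells and 0 of these among the control macrophages used below.

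Depth was matched before any gene was compared, because a deeper cell shows more genes. Each positive cell was paired with the negative cell closest in total UMIs, and all 270 found a partner within 0.1 on the log2 scale. The paired cells had a median of 9177.5 UMIs on the positive side and 9168 on the negative side, with 1868 and 1889 genes and a mitochondrial share of 0.98% and 0.97%. In total the paired cells held 2485551 UMIs on the positive and 2483252 on the negative side, those of Cxcl9 included. Levels below are summed UMIs per 1000000 of these totals after the Cxcl9 UMIs were taken out (CPM). Brackets give exact 95% intervals, which cover counting error only and not differences between cells or mice.

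Cxcl9 was concentrated in few cells. The 270 positive cells held 2045 Cxcl9 UMIs, with a lowest count of 1, a median of 3 and a highest of 85 per cell. The 27 cells with the most held 46.6% of them. At the edge of the rule, 83 cells sat just inside with 1 UMI and 747 just outside with 0, while 66 had 2 to 3 UMIs and 121 had 4 or more. The positive cells supplied 63.7% of the 3208 Cxcl9 UMIs in the whole IL-12 library.

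Positive cells made up 26.5% (23.9 to 29.4) of the IL-12 cells and 10.4% (7.42 to 14.2), or 36 of 345, of control cells chosen in the same way. Across 4 bins of rising depth the IL-12 share was 23.6%, 26.8%, 28.7% and 27.1%, against 7%, 9.59%, 11.4% and 14% in control. These intervals are over cells of 1 pooled library each, so they compare the libraries and do not test the treatment. With every cell thinned to 2000 UMIs the share was 16.6% (14.3 to 19.1) of 1000 IL-12 cells and 4.44% (2.5 to 7.21) of 338 control cells, with 17 and 7 shallower cells left out. Cell types in which Cxcl9 is not a typical product gave shares for comparison. Whether their Cxcl9 UMIs came from free RNA, from doublets or from the cells themselves was not tested. A Cxcl9 UMI was seen in 2.53% of neutrophils and 1.14% of CD8 T cells of the thinned IL-12 library. In control it was seen in 0.699% and 0.155% of them, and both macrophage shares stood above those of their library. Unthinned, the neutrophil and CD8 T cell shares were 3.62% and 3.4% in IL-12, at medians of 2553 and 6433.5 UMIs per cell. They were 0.992% and 0.308% in control, at 2524 and 5794. Over all the chosen cells Cxcl9 stood at 222.8 CPM in IL-12 and 54.8 CPM in control, 4.07-fold higher (3.48 to 4.78). Within positive cells alone it stood at 822.8 CPM in IL-12 and 463.6 CPM in control, where the median was 2 UMIs and the highest 21.

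**Figure D1:**
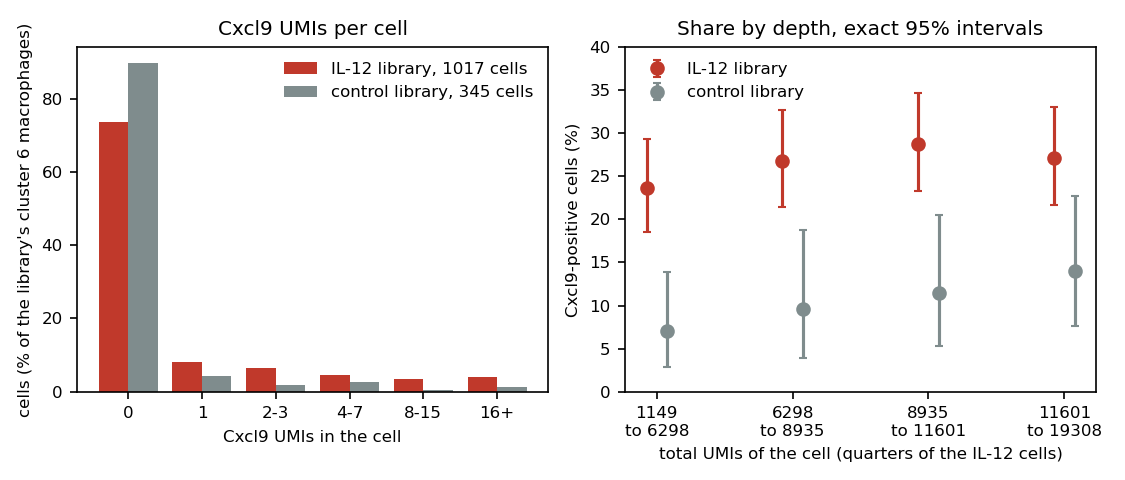
Left, the percentage of cluster 6 macrophages without a clone at each number of Cxcl9 UMIs, 1017 cells of the IL-12 library and 345 of control. Right, the percentage of Cxcl9-positive cells in 4 bins of total UMIs with exact 95% intervals, where the IL-12 points run from 23.6% to 28.7% and the control points from 7% to 14%.

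Outside Cxcl9 the positive and negative cells were close to each other. Genes entered the ranking if the paired cells held 100 or more of their UMIs and 5% or more of the cells on either side had one. Of 3774 such genes, 82 were higher by 1.5-fold or more in positive cells (2.17%) and 84 were lower by as much (2.23%). The 5th and 95th percentiles of the log2 ratio, with a pseudocount of 1 CPM, were -0.44 and 0.43. Lists of genes below count members from 20 UMIs on, and of all 7119 genes with as many, 5.55% were higher and 8.06% lower by 1.5-fold, which is the background for those counts. At such low sums a ratio of 1.5 is within counting error for many genes.

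Cxcl11, the sister ligand of CXCR3, had the highest ratio. It had 446 UMIs in positive and 58 in negative cells, or 179.6 against 23.4 CPM, 7.69-fold (5.84 to 10.3). A Cxcl11 UMI was seen in 29.6% of positive and 6.3% of negative cells, so most Cxcl9-positive cells showed none. The positive sum was uneven, with 56.7% of it in 11 cells, a highest of 54 UMIs in a positive and 11 in a negative cell. The log2 ratio was still 3.11 without the 3 fullest cells of each side, against 2.89 with them. In 3 bins of 90 pairs by depth it was 3.84 in the shallow, 2.81 in the middle and 2.22 in the deep bin.

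Another 6 of the 12 highest genes were spread over many cells. Serpina3g, a serine protease inhibitor induced by interferon-gamma in mouse immune cells, had 117 UMIs in positive and 22 in negative cells, 5.32-fold (3.35 to 8.81), and was seen in 25.9% and 6.3% of them. Ly6i, a surface protein of the Ly6 family, had 601 and 172 UMIs, 3.49-fold (2.94 to 4.16), in 51.9% and 33.3% of cells. Calhm6, a membrane channel of activated macrophages, had 329 and 108 UMIs, 3.05-fold (2.44 to 3.82), in 44.4% and 22.2% of cells. All 3 had a log2 ratio above 1 in each bin of depth. Slamf8, a SLAM-family surface receptor of myeloid cells, had 229 UMIs in positive and 82 in negative cells, 2.79-fold (2.16 to 3.64), in 40.7% and 19.3% of cells. Cd40, the receptor through which T cells activate antigen-presenting cells, had 396 and 178 UMIs, 2.22-fold (1.86 to 2.67), and was seen in 59.3% of positive and 36.7% of negative cells. Pdlim4, an actin-binding protein, had 85 and 33 UMIs, 2.58-fold (1.7 to 3.98), in 21.1% and 10.7% of cells. Serpina3g and Ly6i have close relatives in the genome, and the descriptions used here do not say how reads were divided among such copies, so their values are uncertain.

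The other 5 of the 12 highest genes rested on few cells or few UMIs. Ccr7, the homing receptor of mature dendritic cells and naive T cells, had 310 UMIs in positive and 56 in negative cells, but 6 positive cells held 81% of the positive sum. Without all cells of 10 or more Ccr7 UMIs its log2 ratio was 0.47, against 2.42 with them. Timd4, a receptor for dying cells, had 126 UMIs in positive and 35 in negative cells, and 2 positive cells held 46.8% of the positive sum. These sums rest on handfuls of cells. Ccl8, a monocyte-attracting chemokine, had 753 and 323 UMIs, with 86.9% of the positive sum in 12 cells, and its log2 ratio was 2.4, -1.79 and 1.58 from the shallow to the deep bin. Areg, the growth factor amphiregulin, had 154 and 69 UMIs with 67.5% of the positive sum in 5 cells, and a log2 ratio of 0.27 when negative cells were weighted by depth in place of pairing, against 1.13. Prok2, a chemotactic peptide of neutrophils and monocytes, had 75 UMIs in positive and 25 in negative cells, in 10.7% and 5.9% of cells.

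**Figure D2:**
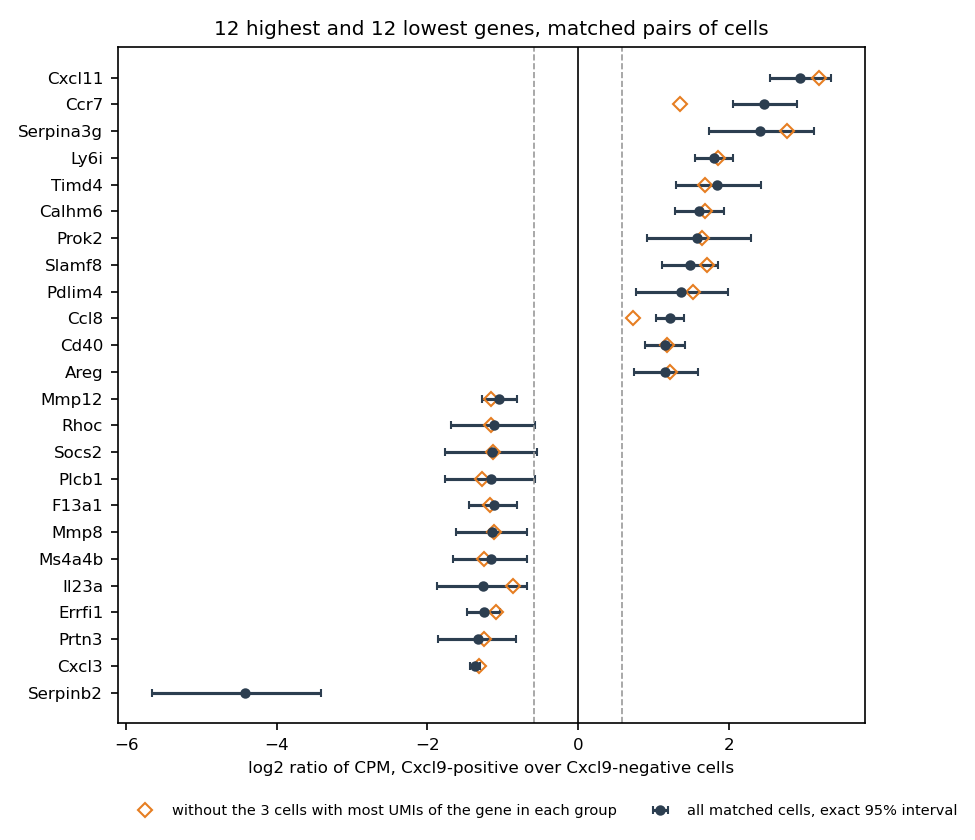
The 12 genes with the highest and the 12 with the lowest ratio of CPM, Cxcl9-positive over Cxcl9-negative, in 270 pairs of cells, without a pseudocount. Dots carry exact 95% intervals, dashed lines mark 1.5-fold, and diamonds leave out the 3 cells of each side with most UMIs of the gene; the diamonds of Ccr7 at 1.36 and Ccl8 at 0.735 lie left of their intervals, and Serpinb2 has no diamond because no positive UMI was left.

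Among the lowest genes, Cxcl3, which attracts neutrophils through CXCR2, had by far the most UMIs. It had 2716 UMIs in positive and 7000 in negative cells, 2.58-fold lower in positive cells (2.47 to 2.7). The share of cells with Cxcl3 was nearly equal, at 75.6% of positive and 78.1% of negative cells, so the difference lay in UMIs per cell, with the fullest cells at 114 and 379. Its log2 ratio was -1.15, -1.42 and -1.4 from the shallow to the deep bin.

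Errfi1, a feedback inhibitor of epidermal growth factor receptor signalling, had 245 UMIs in positive and 583 in negative cells, 2.38-fold lower (2.05 to 2.77). F13a1, a clotting factor subunit made by monocytes, had 119 and 259 UMIs, 2.18-fold lower (1.75 to 2.73), in 21.5% and 30% of cells. Mmp12, macrophage elastase, had 229 and 473 UMIs, 2.07-fold lower (1.76 to 2.43), in 14.8% and 21.1% of cells. All 3 had a log2 ratio below 0 in each bin of depth. Plcb1, a phospholipase C, was seen in 10% of positive and 21.9% of negative cells, with 36 and 80 UMIs.

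Serpinb2, a plasminogen activator inhibitor, had the lowest ratio of all, with 8 UMIs in positive and 172 in negative cells, but 5 negative cells held 80.2% of its sum. Il23a, a subunit of interleukin 23, had 35 and 84 UMIs with 52.4% of the negative sum in 3 cells. Mmp8, neutrophil collagenase, had 57 and 126 UMIs and changed sign between the bins, with log2 ratios of -1.53, 1.6 and -1.98 from the shallow to the deep bin. Prtn3, the myeloid granule protease proteinase 3, Ms4a4b, a membrane protein of T cells, Socs2, an inhibitor of cytokine signalling, and Rhoc, a small GTPase, had between 75 and 114 UMIs in negative cells and were 2.17-fold to 2.51-fold lower.

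Cxcl10, the other CXCR3 ligand, was much closer to level than Cxcl11. It had 472 UMIs in positive and 368 in negative cells, 1.28-fold (1.12 to 1.48), in 26.3% and 17.4% of cells. Its log2 ratio was 0.36 over all pairs, 2.42 in the shallow and -1.23 in the deep bin, so its direction differed between the bins. Whether depth or a few full cells made that difference was not tested. It passed 1.5-fold in 4 of 15 alternatives, among them 0.70 without the 3 fullest cells of each side and 0.76 without cells with T cell transcripts. The upstream stretches of Cxcl9, Cxcl10, Serpina3g and Slamf8 are shown because the first is the gene that divided the cells, the second its neighbour on chromosome 5 and the other 2 were among the higher genes spread over many cells. They are the 250 bases before the RefSeq start, on the strand of the gene, in build GRCm38.p6. Capitals mark a match, on either strand, of TTCNNNGAA, the core of the gamma-activated sequence, or of the core bound by interferon regulatory factors (ISRE), which is GAAA, any 2 bases and GAAA again.
Cxcl9, chr5:92328080-92328329, minus strand: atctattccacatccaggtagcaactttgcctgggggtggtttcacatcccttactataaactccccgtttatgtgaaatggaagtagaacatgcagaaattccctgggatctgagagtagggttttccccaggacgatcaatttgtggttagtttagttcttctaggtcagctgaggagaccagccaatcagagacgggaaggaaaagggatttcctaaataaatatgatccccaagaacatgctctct
Cxcl10, chr5:92348890-92349139, minus strand: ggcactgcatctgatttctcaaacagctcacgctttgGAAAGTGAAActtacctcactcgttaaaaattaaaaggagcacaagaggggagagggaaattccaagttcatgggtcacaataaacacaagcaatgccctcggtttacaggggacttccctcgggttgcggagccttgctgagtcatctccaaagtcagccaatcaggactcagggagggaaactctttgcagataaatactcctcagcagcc
Serpina3g, chr12:104235897-104236146, plus strand: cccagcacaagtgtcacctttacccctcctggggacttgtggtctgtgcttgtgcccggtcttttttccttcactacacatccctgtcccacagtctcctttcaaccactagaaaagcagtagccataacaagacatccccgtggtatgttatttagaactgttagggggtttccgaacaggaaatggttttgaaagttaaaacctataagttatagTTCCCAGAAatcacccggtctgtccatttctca
Slamf8, chr1:172590569-172590818, minus strand: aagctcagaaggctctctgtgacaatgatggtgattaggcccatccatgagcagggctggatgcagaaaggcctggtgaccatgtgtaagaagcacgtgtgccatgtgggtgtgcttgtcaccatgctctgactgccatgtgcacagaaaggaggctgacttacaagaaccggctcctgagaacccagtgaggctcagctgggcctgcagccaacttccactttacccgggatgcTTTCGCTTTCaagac

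The Cxcl9 stretch held neither motif, Cxcl10 and Slamf8 each held the ISRE core once and Serpina3g held TTCNNNGAA once. Of 32851 promoters of this length, 7.02% held TTCNNNGAA and 2.98% held the ISRE core. Of the 12 highest genes, 8 were matched in the RefSeq table, and of their 8 promoters 1 held TTCNNNGAA and 2 held the ISRE core, those of Slamf8 and Calhm6. Of the 12 lowest genes, 2 of 14 promoters held TTCNNNGAA and 0 held the ISRE core. Among the families described next, the ISRE core stood in 5 of 6 promoters of guanylate-binding proteins and 6 of 7 of immunity-related GTPases. It stood in 7 of 14 of the type I interferon response, 3 of 19 of MHC class I and 1 of 9 of MHC class II. Some genes had more than 1 promoter and others none. The promoters covered 5 of 11 guanylate-binding proteins, 7 of 9 immunity-related GTPases and 13 of 19 type I genes. For MHC they covered 17 of 18 class I and 8 of 10 class II genes. A match of letters is a description and not a binding site. Cxcl11, Ccr7, Ly6i and Cd40 had no entry in the table.

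The pathway that induces Cxcl9 was nearly level between the sides. None of the 9 genes of interferon-gamma reception and signalling differed by 1.5-fold, and their median log2 ratio was -0.04, against -0.000142 over all measured genes. The receptor chains Ifngr1 and Ifngr2 had 259 and 348 UMIs in positive cells against 298 and 294 in negative cells. Among 9 transcription factors of the interferon response 2 were higher. Ciita, the master regulator of MHC class II genes, had 69 UMIs in positive and 21 in negative cells, 3.29-fold (1.99 to 5.64), and Batf2, a partner of IRF1 in macrophages, had 86 and 52, 1.65-fold (1.16 to 2.38). Irf1 had 198 and 177 UMIs and Irf8 489 and 608, both within 1.5-fold.

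Genes of host defence that interferon-gamma induces had medians above that of all genes. Of 10 guanylate-binding proteins with at least 20 UMIs, which attack vacuoles of intracellular microbes, 1 was higher and 1 lower, with a median of 0.38. Gbp3 had 246 UMIs in positive and 152 in negative cells, 1.62-fold, and Gbp2 had 1181 and 793, 1.49-fold, just under the threshold. The lower one, Gbp10, had 8 and 12 UMIs. Of 7 immunity-related GTPases, which act on the same vacuoles, 3 were higher and none lower, with a median of 0.48. Iigp1 had 304 UMIs in positive and 187 in negative cells, Tgtp1 204 and 123 and Tgtp2 114 and 75, and the last 2 are near-identical copies whose counts are uncertain.

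Genes of the type I interferon response were nearer to level. Of 19 counted, 0 were higher and 2 lower, Cmpk2 with 28 UMIs in positive and 71 in negative cells and Mx1 with 20 and 30. Their median was 0.07. Isg15, a ubiquitin-like protein, had 4278 and 3472 UMIs and Rsad2, the antiviral enzyme viperin, 607 and 757.

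Genes of antigen presentation through MHC class II lay above 0 throughout and near the threshold. All 9 counted genes had a log2 ratio above 0, with a median of 0.46, and none reached 1.5-fold. With positive meaning 2 or more Cxcl9 UMIs, H2-Aa, H2-Ab1 and H2-Eb1 passed it, at log2 ratios of 0.655, 0.691 and 0.723. H2-Ab1 had 12908 UMIs in positive and 8880 in negative cells, 1.45-fold (1.41 to 1.49), and H2-Eb1 16746 and 11494, 1.46-fold (1.42 to 1.49). Cd74, the invariant chain, had 53021 and 39442 UMIs, and H2-DMb1, which loads peptide, 399 and 272. The genes were seen in nearly all cells of both sides, as with H2-Ab1 in 98.5% of positive and 92.6% of negative cells. For MHC class I, 17 of 18 genes had a ratio above 0 with a median of 0.24, and 1 passed 1.5-fold, the peptide transporter Tap2 with 272 and 180 UMIs. Housekeeping genes had a median of 0.06.

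**Figure D3:**
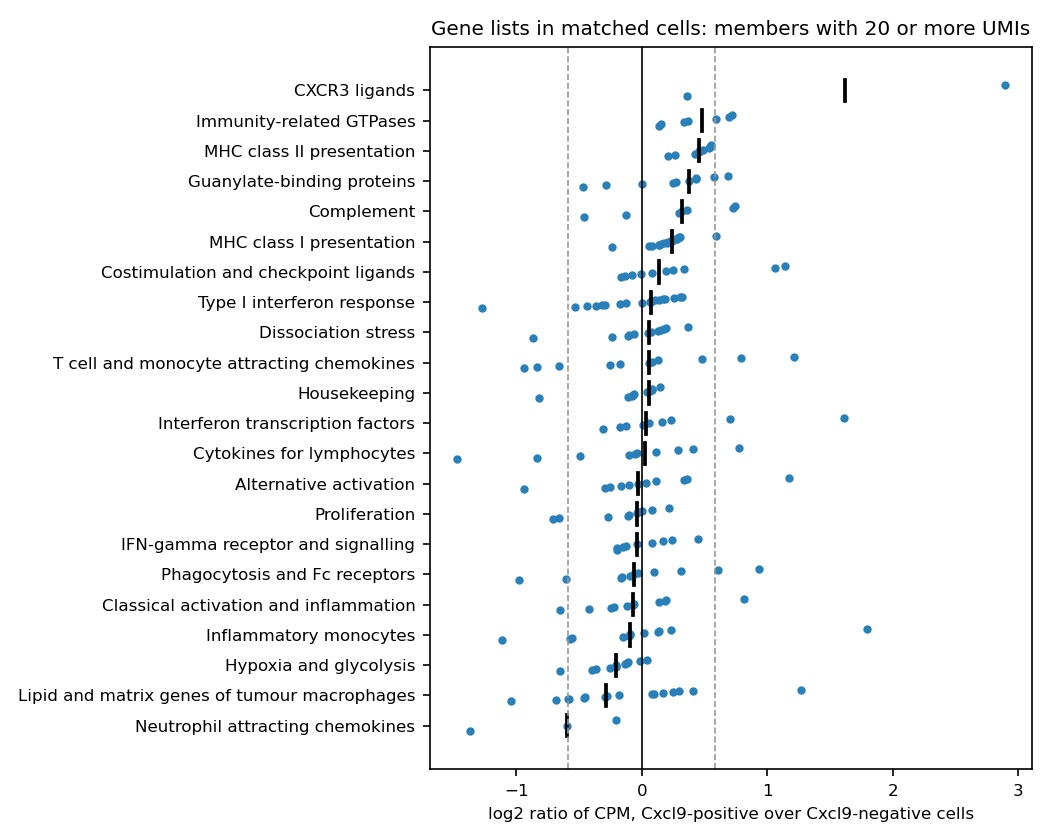
Log2 ratio of CPM, Cxcl9-positive over Cxcl9-negative cells, for each gene with 20 or more UMIs (dots) in lists with at least 2 measured members, with a pseudocount of 1 CPM. Black bars are the medians over measured members and dashed lines mark 1.5-fold; MHC class II lies wholly right of 0 at a median of 0.46, and the neutrophil-attracting chemokines lie wholly left of it.

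Of the chemokines that attract neutrophils, Cxcl3 stood out. All 3 neutrophil-attracting chemokines with 20 or more UMIs had a ratio below 0, with a median of -0.59, and 2 of them passed 1.5-fold. Besides Cxcl3, Cxcl1 had 2164 UMIs in positive and 3263 in negative cells, 1.51-fold lower (1.43 to 1.59), but it was under 1.5-fold in 4 of 15 alternatives, with a log2 ratio of -0.32 when positive meant 2 or more Cxcl9 UMIs. Cxcl2, the most abundant, had 32785 and 37756, within 1.5-fold. Of 11 chemokines for T cells and monocytes 2 were higher and 3 lower. Ccl5, which draws T cells, had 2320 UMIs in positive and 1339 in negative cells, 1.73-fold (1.62 to 1.85) and 0.79 on the log2 scale. That value depended on the cells used: it was 0.52 with another order of pairing and 0.06 with clone-bearing cells included. Ccl24, Ccl9 and Ccl6 were lower, with 208, 453 and 1570 UMIs in positive cells against 400, 811 and 2479 in negative cells.

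Ligands and cytokines that act on T cells were mostly level. Of 10 costimulatory and checkpoint genes, Cd40 and Tnfsf9, the ligand of 4-1BB, were higher and none was lower. Tnfsf9 had 107 UMIs in positive and 50 in negative cells but was seen in 10.4% and 8.15% of them. Cd274, which encodes PD-L1, had 845 and 800 UMIs, 1.06-fold (0.958 to 1.17), and Cd86 had 460 and 403. Il12b, the subunit shared by interleukins 12 and 23, is named here for the treatment and had 3 UMIs in positive and 0 in negative cells. Il15 had 33 and 34 UMIs and Il18bp, a decoy for interleukin 18 that interferon-gamma induces, 292 and 220. Of 10 such cytokine genes Ebi3 was higher, with 53 and 30 UMIs, and Il12a and Fasl lower, with 9 and 6 UMIs in positive against 18 and 21 in negative cells.

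Polarisation markers were close to level. Of 11 classical activation genes 1 was higher and 1 lower, and of 11 alternative activation genes 1 was higher and 1 lower. Nos2, the inducible nitric oxide synthase, had 233 UMIs in positive and 276 in negative cells. Arg1, arginase 1, had 2139 and 2552, and Mrc1, the mannose receptor, 170 and 166. Retnla was the higher alternative gene, with 66 and 28 UMIs in 2.59% and 2.22% of cells.

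Complement genes were higher in part and tissue-remodelling genes lower in part. Of 7 complement genes C3 and Cfb were higher, with 583 and 446 UMIs in positive against 348 and 268 in negative cells, 1.68-fold (1.46 to 1.92) and 1.66-fold (1.43 to 1.94). C1qa had 2876 and 2336, Adgre1 112 and 82 and Csf1r 654 and 543. Of 16 lipid and matrix genes of tumour macrophages 1 was higher and 4 lower. Thbs1, thrombospondin 1, had 1620 UMIs in positive and 2605 in negative cells, 1.61-fold lower (1.51 to 1.71), in 37.8% and 53.3% of cells. Ctsl, Mmp12 and Mmp13 were the others, and Spp1, osteopontin, had 2893 and 3992. Of 12 hypoxia and glycolysis genes 11 had a ratio below 0 with a median of -0.20, and Hilpda, a lipid droplet protein, was lower by 1.57-fold. Of 11 phagocytic and Fc receptors, Axl and Mertk, which clear dying cells, were higher, with 157 and 29 UMIs in positive against 102 and 14 in negative cells. Cd36 and Itgam, which encodes CD11b, were lower, with 14 and 266 against 30 and 405. Monocyte genes other than Ly6i and F13a1 were within 1.5-fold, as were 8 of 10 proliferation genes and 11 of 12 genes of dissociation stress, where Hspa1a had 80 UMIs in positive and 148 in negative cells.

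T cell transcripts moved with the division and are given as a whole list. All 13 counted T cell markers had a ratio below 0 and 11 passed 1.5-fold, with 401 UMIs in positive and 727 in negative cells. A T cell UMI was present in 43.3% of positive and 41.9% of negative cells, at up to 0.372% and 0.835% of a cell's UMIs. Ifng, which these cells make, had 9 and 31 UMIs. The 7 NK cell markers in the table had 106 and 269 UMIs in 19.6% and 16.3% of cells. The 12 neutrophil markers held 23476 and 25455 UMIs, and B cell markers 4 and 10. The 7 mature dendritic cell markers held 352 and 151 UMIs, but Ccr7 carried that sum. The other 6 held 42 in positive and 95 in negative cells, of which Socs2, one of the 12 lowest genes, supplied 34 and 75. Macrophage markers held 52939 and 49668, with 1 of 13 higher and 1 lower by 1.5-fold, and their median share of a cell's UMIs was 1.9% and 1.76%. Without the cells that held a CD3 or receptor constant UMI, 202 pairs remained. In them the log2 ratio was 3.09 for Cxcl11, 2.52 for Serpina3g, 1.22 for Cd40, -1.18 for Cxcl3 and 1.64 for Ccl5, but Ccl8 had 0.23, against 1.21 with all cells. The part of other cells' transcripts in the remaining results was not tested.

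The number of Cxcl9 UMIs in a cell gave a second view of the same cells. Cells with 1, with 2 to 3 and with 4 or more were each paired with negative cells of like depth, as 83, 66 and 121 pairs. Serpina3g had log2 ratios of 1.36, 1.28 and 3.23, Calhm6 0.93, 0.38 and 2.3, and Cd40 0.40, 0.48 and 1.73. These 3 genes therefore stood highest where Cxcl9 was most abundant, with Cd40 in 44.6%, 53% and 72.7% of the cells. H2-Ab1 had 0.32, 0.58 and 0.73. Cxcl11 had log2 ratios of 2.66, 2.17 and 2.75 and Cxcl3 -1.29, -1.43 and -1.24, with no such order in the ratio. The level of Cxcl11 itself was highest in the last class, at 105.3, 95.9 and 262.7 CPM in 16.9%, 15.2% and 46.3% of cells. In the paired negative cells it was 15.9, 20.6 and 38.1 CPM. Cells with 1 Cxcl9 UMI had 73 Cxcl11 UMIs, against 11 in their negative partners.

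**Figure D4:**
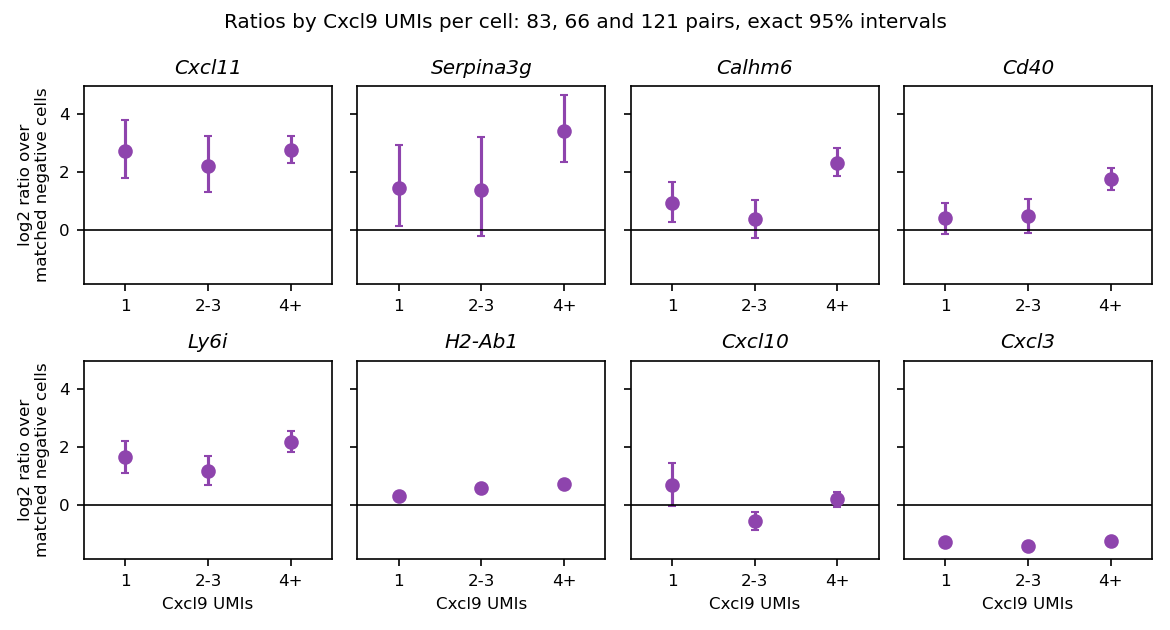
Log2 ratio over paired Cxcl9-negative cells, without a pseudocount and with exact 95% intervals, for cells with 1, 2 to 3 and 4 or more Cxcl9 UMIs. Ratios of Serpina3g, Calhm6 and Cd40 are highest at 4 or more, while the ratios of Cxcl11 and Cxcl3 stay near the same value in all 3 classes.

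Cluster 6 held cells with much and with little complement C1q, a mark of differentiated tumour macrophages, so the contrast was repeated in each. This division was chosen after values were seen. With 10 or more UMIs of C1qa, C1qb and C1qc as the bound, 314 cells were C1q-high and 703 C1q-low. Ly6c2, a mark of recent monocytes, was seen in 27.4% of C1q-high and 78.7% of C1q-low cells, and Adgre1 in 40.8% and 18.9%. Cxcl9-positive cells were 31.2% (26.1 to 36.7) of C1q-high and 24.5% (21.3 to 27.8) of C1q-low cells, at 260.4 and 204.6 CPM of Cxcl9 and median depths of 9541 and 8701 UMIs.

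The ratios beside Cxcl9 were of different size in the 2 sets. Cxcl11 had 70 UMIs in positive and 26 in negative C1q-high cells, 2.69-fold (1.69 to 4.4), and 376 and 18 in C1q-low cells, 20.9-fold (13.1 to 35.7). Serpina3g had 62 and 6 UMIs in C1q-high cells and 55 and 15 in C1q-low cells, 10.3-fold (4.48 to 29.2) and 3.67-fold (2.05 to 7). H2-Ab1 was 1.17-fold higher (1.13 to 1.22) in C1q-high and 1.7-fold higher (1.64 to 1.77) in C1q-low positive cells. Calhm6, Ly6i and Cd40 had ratios of 4.12, 2.42 and 1.8 in C1q-high cells and 2.74, 3.79 and 2.67 in C1q-low cells.

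Cxcl3 and Errfi1 were near level in C1q-high cells and lower in C1q-low cells. Cxcl3 had 932 UMIs in positive and 918 in negative C1q-high cells, 1.01-fold (0.925 to 1.11), against 1767 and 5345 in C1q-low cells, a ratio of 0.331 (0.314 to 0.349). Errfi1 had 66 and 58 UMIs in C1q-high and 179 and 538 in C1q-low cells. Thbs1 had the opposite sign in the 2, with ratios of 1.93 (1.57 to 2.39) and 0.59 (0.551 to 0.631). Cxcl10 had 128 UMIs in positive and 54 in negative C1q-high cells, 2.37-fold (1.71 to 3.32), and 343 and 290 in C1q-low cells, 1.18-fold (1.01 to 1.39). These differences between the sets were not tested, since there is 1 library.

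Co-detection across single cells was measured with each cell thinned to 2000 UMIs in a separate draw, where 170 of 1000 cells kept a Cxcl9 UMI. The measure was phi, the correlation of 2 yes-or-no readings, which ran from -0.053 to 0.063 between its 5th and 95th percentile over 5340 genes. Cxcl11 was the most alike at 0.26, seen in 18.8% of Cxcl9-positive and 2.89% of other cells. AW112010, a transcript induced in inflamed macrophages, followed at 0.183, Ly6i at 0.183, Ly6a, the stem cell antigen Sca-1, at 0.176 and Serpina3g at 0.172. Ly6a had 1707 UMIs in the paired positive and 868 in the paired negative cells. Cxcl10 stood at 0.052, inside the range of most genes.

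The same contrast was also drawn in cells that the rule left out. In the control library 36 pairs were formed, and of 795 measured genes 75 were higher by 1.5-fold (9.43%) and 52 lower (6.54%), on totals of 371042 and 370803 UMIs. Cxcl11 had 21 UMIs in positive and 0 in negative control cells. Serpina3g had 14 and 5, Ly6i 10 and 2, and Cd40 21 and 13. By share of cells, Cxcl11 was seen in 13.9% of positive and 0% of negative control cells, and Ly6i in 13.9% and 5.56%. Serpina3g ran the other way by share, at 5.56% and 11.1%, and the interval of its ratio (0.953 to 9.93) included 1. Cd40 was seen in 22.2% of both sides. 3 of the 12 highest genes had the 20 UMIs needed for a count, Cxcl11, Cd40 and Areg, and all 3 were higher by 1.5-fold, but the intervals of Cd40 (0.772 to 3.51) and Areg (0.776 to 3.74) included 1.

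MHC class II leaned the same way in control cells, where 17.5% of all 3478 genes with 20 UMIs were higher by 1.5-fold and 11% lower. All 9 genes had a ratio above 0 and 5 passed 1.5-fold, with 11047 UMIs in positive and 6471 in negative cells in sum, and Cd74 was 1.67-fold higher (1.6 to 1.75). All 7 complement genes passed 1.5-fold there, with 2532 and 1440 UMIs. Macrophage markers also differed between the control sides, with 6 of 12 higher by 1.5-fold and 10372 and 7690 UMIs. Their part in the complement and MHC values was not tested.

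Of the 12 lowest genes 8 could be counted in control cells, and 1 of them, F13a1, was lower by 1.5-fold with 14 and 26 UMIs. Mmp8 had 37 UMIs in positive and 12 in negative control cells, 3.08-fold higher (1.57 to 6.49), opposite to the IL-12 cells. It was seen in 19.4% of positive and 22.2% of negative control cells, so the difference lay in UMIs per cell. Cxcl3 had 793 and 1147 UMIs, a ratio of 0.691 (0.631 to 0.757), which is the same direction but under 1.5-fold. Errfi1 was equal at 77 and 77, and Cxcl10 had 6 UMIs in positive and 17 in negative cells.

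Other IL-12 cells gave smaller counts still. In 35 pairs of cluster 6 macrophages that carried a T cell receptor clone, Ly6i had 73 UMIs in positive and 19 in negative cells, Cd40 40 and 13, Cxcl11 23 and 6 and Cxcl3 521 and 1274. Of the 12 highest genes 7 had 20 UMIs there, and 5 were higher by 1.5-fold and 1 lower, Areg with 30 and 58. Of the 12 lowest genes 9 had 20 UMIs, and 5 were lower by 1.5-fold and 2 higher, Mmp12 with 107 and 20 and Prtn3 with 19 and 6. Over the 912 measured genes of these pairs, the 5th and 95th percentiles of the log2 ratio were -0.622 and 0.583. The share of all genes with 20 UMIs past 1.5-fold was not counted in these pairs. In 60 pairs of macrophages of cluster 10, at medians of 1739 UMIs per positive and 1729 per negative cell, Cxcl11 had 24 and 4 UMIs, Calhm6 16 and 4, Cd74 3051 and 1346 and Cxcl10 27 and 7. Cxcl3 ran the other way in cluster 10, with 20 and 8 UMIs, 2.5-fold higher (1.06 to 6.56). In 75 pairs of cells that the authors call dendritic cells, Cxcl11 had 3 and 2 UMIs, Ly6i 8 and 11 and Cd74 688 and 584, ratios nearer to 1. Cxcl11 was thus higher in Cxcl9-positive cells of both libraries and both macrophage clusters, on few UMIs outside the 270 pairs.

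**Figure D5:**
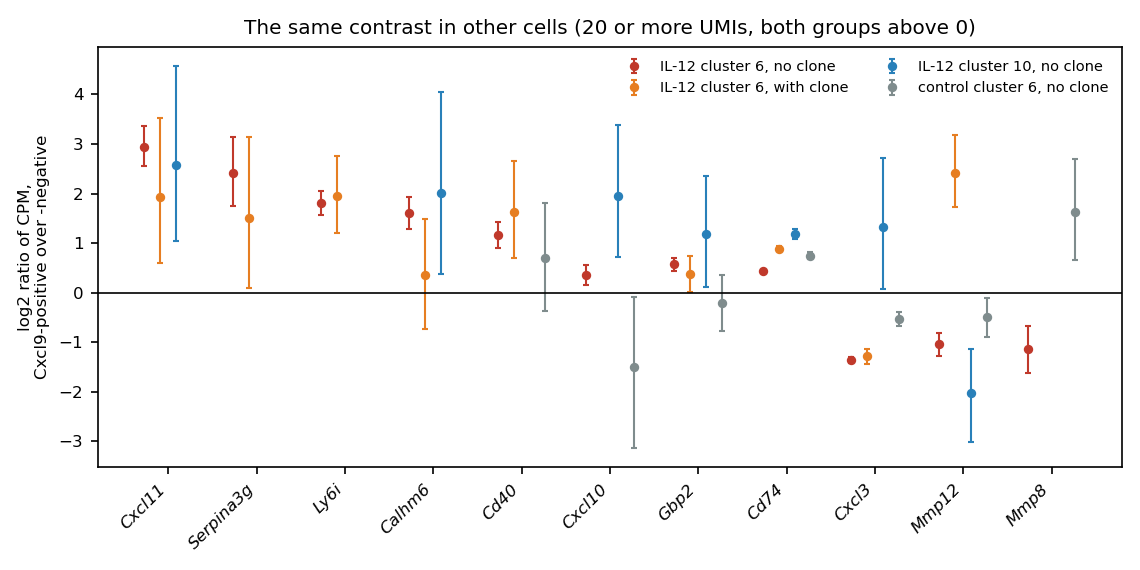
Log2 ratio of CPM, Cxcl9-positive over Cxcl9-negative cells, without a pseudocount and with exact 95% intervals, in 4 sets of macrophages. Genes are drawn where a set has 20 or more UMIs and both sides are above 0, so Cxcl11 has no control point. Cd74 is above 0 in all 4 sets, while Cxcl10, Gbp2, Cxcl3, Mmp12 and Mmp8 take opposite signs between sets. For Gbp2 the opposite sign is that of control, where the interval of the ratio (0.586 to 1.28) includes 1.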

How the data were processed

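The authors deposited 1 expression table per library as log2(CPM + 1) values per cell and gene, a form read from the values, with their cell classes, graph-based clusters and T cell receptor clones beside them. Per the submitters' processing notes, Cell Ranger 2.1.0, STAR 2.6.1 and Partek were used with build mm10, in an order and with settings that are not given in the sources used here. Each cell's values were returned to whole UMIs from the step between its lowest values, and 12 of 13883686 values above 0 in IL-12 and 7 of 4251108 in control were over 0.1 from a whole number. The libraries then held 59956933 UMIs in IL-12 and 17306854 in control, with medians of 3418 and 3021 per cell, over 11407 genes.

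Cxcl9-positive cells were each paired without replacement with the nearest negative cell in log2 UMIs (widest gap 0.1), summed UMIs were compared, and Cxcl9 was left out of the totals and ranks. Ratios carry exact conditional 95% intervals and shares exact Clopper-Pearson ones, for counting error only. With 1 library of 3 pooled mice per treatment no test was made and no p-value is given. "Higher" and "lower" in counts mean 1.5-fold or more, with 100 UMIs in the ranking and 20 in gene lists, and log2 ratios use a pseudocount of 1 CPM unless stated. The named genes are the 12 highest and 12 lowest of the ranking without receptor, immunoglobulin, mitochondrial and ribosomal protein genes, up to 4 members per list with the largest ratios, a set list that includes Cxcl10 and Cd274, and the 5 genes most like Cxcl9 in detection. Other list members were named after their values were seen. Members, lists and comparisons were chosen with earlier results of these data known. Doublets were not called, and cells with a receptor clone were left out by the rule. The calculation was run on simulated data that held counting error only. Those data lacked the unevenness between cells seen here, so they do not test the intervals of uneven genes. Python 3.11.15 was used with numpy 2.4.6, scipy 1.17.1, pandas 2.3.3 and matplotlib 3.10.9. Alternatives changed the matching, depth, thresholds, pseudocount and cells. An item withheld from the text is not reported here. Receptor sequencing libraries were not used here beyond the clone labels.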

Additional observations from a re-analysis of the deposited data

Results flagged for a closer look

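Mmp8, neutrophil collagenase, had opposite signs in the libraries by summed UMIs. It was seen in 10% of positive and 14.4% of negative IL-12 cells, and in 19.4% and 22.2% of control cells. That share was not higher in the positive cells of either library, and Mmp8 changed sign between the IL-12 bins of depth. Its log2 ratio of Cxcl9-positive over Cxcl9-negative cells was -1.11 in IL-12 and 1.59 in control, on 57 against 126 UMIs in IL-12 and 37 against 12 in control, and the difference between the libraries was not tested. Neutrophil markers in sum had 23476 UMIs in positive and 25455 in negative IL-12 cells and 2566 and 3184 in control cells, and their part in the Mmp8 values was not tested.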

How the results depend on the processing

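Against 82 higher and 84 lower of 3774 genes, no matching gave 112 and 153 of 5132, a minimum of 50 UMIs 169 and 222 of 5322, a minimum of 300 UMIs 25 and 24 of 1680, no filter 1423 and 1966 of 10682, and a 2-fold threshold 14 and 15. These settings change how many genes or cells are counted. The share of Cxcl9-positive IL-12 cells was 16.6% at 2000 UMIs, 12% at 1000, 19.4% at 4000 and 26.5% without thinning. The 24 ranked genes were picked as the extremes of this contrast, and the alternatives largely reuse its cells. A kept direction was therefore largely set in advance. These genes kept their direction in each of 15 alternatives, and 19 of them also stayed past 1.5-fold in each. The exceptions on the log2 scale were Ccr7 at 0.467 without cells of 10 or more Ccr7 UMIs, Ccl8 at 0.226 without cells with T cell transcripts, Areg at 0.274 with weighted negatives, Il23a at -0.393 without the cells highest in S100a8 and S100a9, and Socs2 at -0.263 after thinning, which kept the full-depth classes. Among other named genes, H2-Ab1 passed 1.5-fold in 3, H2-Eb1 and Cxcl10 in 4, Gbp2 in 8, Cxcl1 in 11, Gbp3, Cfb and Ccl5 in 13 and Thbs1 in 14 of the 15. Leaving out the Ccr7-rich cells or the 3 fullest cells of a gene was chosen after seeing the data. No paired analysis was possible because each treatment is 1 pooled library and its cells carry no replicate numbers. Depth limits genes under 100 UMIs and every value from the 36 control pairs, and a cell with 0 Cxcl9 UMIs may still express the gene.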
